A study of Mus musculus with 6 samples.

Results

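The 9 genes described here encode transcription factors of the epidermal lineage: Trp63, Trp73, Tfap2a, Tfap2c, Klf4, Klf5, Grhl2, Ovol1 and Sox9. They were taken by symbol from the deposited gene table, where each had 1 entry among 23358. RNA-Seq was performed on 6 spontaneous tumors, each from a different female mouse, and the tumors are called here by the mouse numbers of the labels. The Osx-Cre;NT3 line gave tumors 13, 18 and 25, which all grew on the trunk and had latencies of 150, 168 and 115 days. The FSP1-Cre;NT3 line gave tumor 29, from the trunk with a latency of 72 days, and the perineal tumors 27 and 36, with latencies of 101 and 52 days. All 6 tumors carried NT3, an allele of NF-κB inducing kinase that lacks the TRAF3 binding domain and is silent until Cre removes a STOP cassette. Osx-Cre is a doxycycline-repressed Cre under Osterix (Sp7), an osteoblast lineage gene, from a parental line of mixed C57Bl/6J and CD1 strain. The Osx-Cre;NT3 mice received doxycycline in their food up to weaning, to hold Cre back until then. FSP1-Cre is driven by S100a4 sequences, came from a parental line on an FVB/n background and was not repressed by a drug. The tumor mice were offspring of such Cre males and homozygous NT3 females on a C57Bl/6J background. Both drivers are also known to act in some hematopoietic cells. Line therefore differed together with strain, doxycycline feeding, the age at which Cre acted and latency, and these cannot be told apart. Site was confounded with line in part, since tumor 29 was the only FSP1-Cre;NT3 tumor from the trunk and no Osx-Cre;NT3 tumor was perineal. Non-tumor tissue was not analysed here.

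p63 is the transcription factor that sets up and maintains stratified epithelium, and mice without it lack an epidermis. AP-2α and AP-2γ act beside p63 in the surface ectoderm, GRHL2 maintains the epithelial junction program, KLF5 is a factor of proliferating basal cells, and KLF4 and OVOL1 act as keratinocytes leave the basal layer and form the barrier. SOX9 is a factor of hair follicle stem cells and, outside the skin, of cartilage.

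The gene counts do not separate the protein forms made from alternative promoters of Trp63 and Trp73, so the TA and ΔN starts that each count pools are shown. In the GENCODE M21 annotation of GRCm38, Trp63 lies on the plus strand of chromosome 16 and has 8 transcripts. Of these, 4 begin translation in the first coding exon of the TA form, whose coding part is chr16:25684290-25684351. The other 4 begin in that of the ΔN form, at chr16:25802060-25802101, downstream in the same gene. The TA form carries the transactivation domain, and the ΔN form is the one known from basal keratinocytes. Trp73 lies on the minus strand of chromosome 4, where 3 transcripts begin translation in the ΔN exon at chr4:154096894-154096932 and 1 in the TA exon at chr4:154104819-154104895. Trp73 has 2 further coding starts in this annotation, each of 1 transcript and not shown. Trp73-206 starts upstream and also holds the TA exon, and Trp73-207 starts in an exon that the other 6 transcripts share. The coding bases of the first exon of each form follow, up to 60, with the start codon in capitals. The ΔN exons hold 42 coding bases in Trp63 and 39 in Trp73.
TAp63: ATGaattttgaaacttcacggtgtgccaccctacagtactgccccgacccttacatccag
ΔNp63: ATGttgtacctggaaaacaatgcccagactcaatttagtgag
TAp73: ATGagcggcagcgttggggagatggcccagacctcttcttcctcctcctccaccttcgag
ΔNp73: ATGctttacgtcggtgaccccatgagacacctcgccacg
In the annotation the Trp63 bases are in no transcript with another start, those of TAp73 are also in Trp73-206 and those of ΔNp73 also in Trp73-202. The deposited table holds 1 count for each gene, with no value for either form.

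Klf4 varied most among the 9 genes, and its promoter window, 250 bases before and 50 after the annotated start from RefSeq on GRCm38.p6, is shown for that reason. The window is chr4:55532426-55532725 on the minus strand, and matches to the motifs searched are in capitals.
Klf4 promoter: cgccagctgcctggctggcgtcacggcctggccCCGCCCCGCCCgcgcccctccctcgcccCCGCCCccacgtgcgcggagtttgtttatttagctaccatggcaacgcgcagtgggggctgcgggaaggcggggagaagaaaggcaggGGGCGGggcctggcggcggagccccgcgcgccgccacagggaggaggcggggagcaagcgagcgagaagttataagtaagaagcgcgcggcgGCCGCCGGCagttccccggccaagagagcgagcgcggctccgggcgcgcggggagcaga
Both strands were searched for an AP-2 site (GCCNNNGGC), a KLF site (CCACCC), a GC box (GGGCGG), a κB consensus and a p53 family half-site consensus. The Klf4 window held 4 GC boxes, at positions -217, -212, -189 and -101 from the start, and 1 AP-2 site at position -9. Of 32851 promoter windows of this length, 35.7% held a GC box and 16.6% an AP-2 site, so neither match is rare. No KLF site, κB or p53 family half-site match was found in the Klf4 window, while 31.5%, 8.46% and 8.36% of all windows held one. GC content was 74.3% in the Klf4 window against a median of 52.7%, and GC boxes and AP-2 sites are themselves GC-rich. A match is a description of letters and not a bound site. Windows were given for 3 of the 9 genes. Those of Trp73 and Tfap2a, 2 each, also held no κB match.

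Total counts ranged from 51824408 to 163297772, the largest in tumor 18, so counting error was small for all 9 genes except Ovol1, whose lowest count was 72. Every deposited count was an even number. Levels are given as CPM, which are counts scaled to the size of each library, here after TMM scaling, and for comparisons between genes as the authors' RPKM, which divides by gene length. Tumor 36 stood apart from the rest. Its correlation with the other tumors over all genes tested was 0.874 to 0.906, against 0.926 to 0.975 among the other 5, and it had the highest share of counts on the ribosomal entry Rn45s, 13.3% against 5.28% to 10.2%. The basal keratinocyte markers Krt5 and Krt14 were high in every tumor, from 2591 to 6087 CPM and from 1637 to 4104 CPM. The epidermal label of the genes thus has a counterpart in these samples. The paper classes the tumors as sarcomas and considers overlying skin, left at excision, a likely source of the epidermal terms it found. Whether these transcripts came from tumor cells or from such skin was not tested. In bulk tumors, fewer cells of a type and less RNA per cell cannot be told apart.

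All 9 genes were detected in all 6 tumors. Per length, Trp63 was highest, with a mean of 42.0 ± 11.9 RPKM (SD, n = 6), and ranked 1458th of the 23358 entries. Tfap2c followed at 21.2 ± 6.12 RPKM. Klf5, Klf4, Sox9 and Grhl2 had means between 12.7 and 15.6 RPKM, that of Klf4 with an SD of 23.4 RPKM. Trp73 and Tfap2a lay at 7.58 ± 3.38 and 6.05 ± 2.67 RPKM, and Ovol1 was lowest at 0.927 ± 1.12 RPKM. Ranked by mean log2 RPKM, the order was Trp63, Tfap2c, Klf5, Grhl2, Sox9, Klf4, Trp73, Tfap2a and Ovol1. Neighbours in this order were compared within tumors by an exact two-sided sign-flip permutation test, for which the smallest p with 6 tumors is 0.03125. Trp63 exceeded Tfap2c in 6 of 6 tumors, by 1.00 ± 0.31 on the log2 RPKM scale (SD, exact permutation p = 0.03125, adjusted p = 0.125 over the 8 neighbouring pairs). Tfap2a exceeded Ovol1 in 6 of 6 tumors, by 3.11 ± 1.57 (exact permutation p = 0.03125, adjusted p = 0.125). The other 6 neighbouring pairs had adjusted exact p from 0.333 to 1. Adjustment left no pair past 0.05. Sox9 and Grhl2 differed by 0.030 and Klf4 and Trp73 by 0.021 on the log2 RPKM scale, with spreads of 0.29 and 1.93 between tumors.

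**Figure D1:**
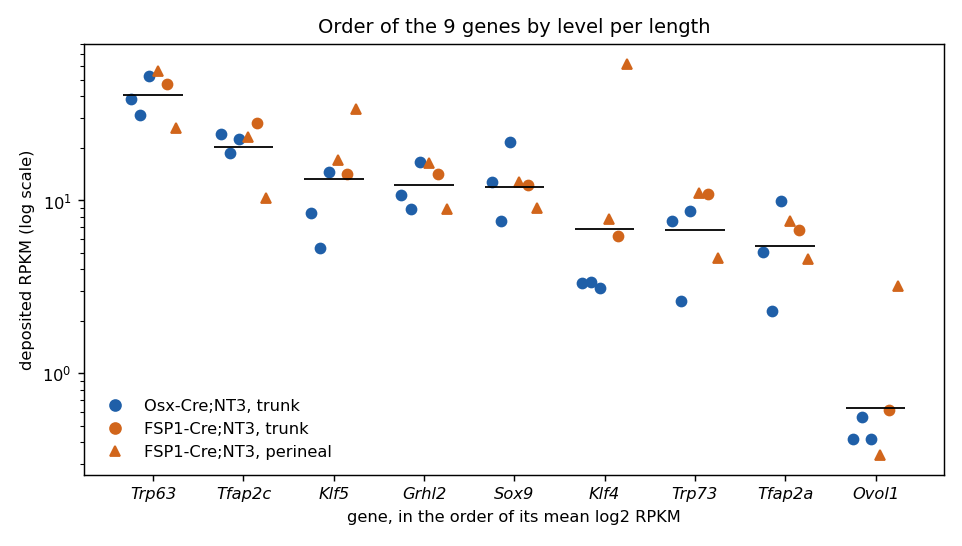
Deposited RPKM (log scale) of the 9 genes in the 6 tumors, ordered by mean log2 RPKM (horizontal bars); color marks the line and shape the site. Trp63 lay above Tfap2c in all 6 tumors, and Klf4 ranged from 3.11 RPKM in tumor 25 to 61.9 RPKM in tumor 36.

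Trp63 was abundant and even across the tumors. The 3 Osx-Cre;NT3 tumors had 312, 248 and 393 CPM (tumors 13, 18 and 25, the order kept below), and the 3 FSP1-Cre;NT3 tumors had 383, 356 and 198 CPM (tumors 27, 29 and 36). The lines overlapped, tumor 36 was lowest and the highest value was 1.99 times the lowest. The mean was 318 ± 72.5 CPM in Osx-Cre;NT3 and 312 ± 100 CPM in FSP1-Cre;NT3 (SD, n = 3 each), a log2 fold change of -0.026 with a 95% interval from -0.77 to 0.72 (edgeR, adjusted p = 0.977). Its sign turned under library sizes alone, where it was 0.093. Perineal over trunk tumors, the log2 fold change was -0.18 (edgeR, adjusted p = 0.864).

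Trp73, the relative of Trp63 best known from multiciliated cells and neurons, was lower and more variable. It had 54.3, 18.4 and 57.0 CPM in the Osx-Cre;NT3 tumors and 66.2, 72.6 and 30.5 CPM in the FSP1-Cre;NT3 tumors. Tumors 18 and 36 were low and the other 4 lay between 54.3 and 72.6 CPM, so the lines overlapped. The log2 fold change between the lines was 0.38 with a 95% interval from -0.81 to 1.58 (edgeR, adjusted p = 0.760), and between the sites -0.069 (edgeR, adjusted p = 0.972). The RPKM ratio of Trp73 to Trp63 was 0.198, 0.0841 and 0.165 in the Osx-Cre;NT3 tumors and 0.196, 0.232 and 0.175 in the FSP1-Cre;NT3 tumors. Tumor 18 thus had the least Trp73 relative to Trp63, and the remaining 5 tumors covered a narrow range. The log2 ratio differed by 0.51 between the lines (exact permutation p = 0.3, adjusted p = 0.5 over 3 ratios; 3 tumors against 3 cannot go below 0.1), and by 0.15 without tumor 18. Trp73 exons overlap those of the antisense gene Trp73os by 280 bases, and whether counting used strand is not given in the sources used here.

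Tfap2c, encoding AP-2γ, was the main AP-2 gene in these tumors. It had 98.6, 76.0 and 85.0 CPM in the Osx-Cre;NT3 tumors and 81.3, 108 and 39.5 CPM in the FSP1-Cre;NT3 tumors. In 5 tumors it stayed between 76.0 and 108 CPM, with tumor 36 well below them. Between the lines the log2 fold change was -0.18 with a 95% interval from -1.04 to 0.68 (edgeR, adjusted p = 0.848), and it was 0.13 by edgeR without tumor 36. Perineal over trunk tumors it was -0.61 with a 95% interval from -1.39 to 0.16 (edgeR, adjusted p = 0.551), and -0.18 without tumor 36. Without tumor 27, where tumor 36 alone stood for the perineal site, it was -1.25 by edgeR and -1.22 by DESeq2.

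Tfap2a, encoding AP-2α, had 21.9, 9.95 and 40.0 CPM in the Osx-Cre;NT3 tumors and 28.3, 27.7 and 18.5 CPM in the FSP1-Cre;NT3 tumors. The Osx-Cre;NT3 tumors held both the lowest and the highest value, tumors 18 and 25. Between the lines it had a log2 fold change of 0.052, with a 95% interval from -1.11 to 1.21 (edgeR, adjusted p = 0.971), and of -0.093 between the sites (edgeR, adjusted p = 0.958). Per length, Tfap2a reached from 0.123 times the level of Tfap2c in tumor 18 to 0.442 times in tumor 25, and the log2 ratio differed by 0.54 between the lines (exact permutation p = 0.5, adjusted p = 0.5), by 0.10 without tumor 18, 0.32 without tumor 36 and 1.02 without tumor 25. The deposited Tfap2a model lacks the first 4553 and the last 373 bases of the GENCODE gene on its strand, and 3 antisense genes overlap its exons, so its level is less certain than that of Tfap2c.

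Klf4, a factor of barrier formation in suprabasal keratinocytes, differed most between tumors. It had 13.5, 13.5 and 11.6 CPM in the Osx-Cre;NT3 tumors and 27.0, 23.8 and 233 CPM in the FSP1-Cre;NT3 tumors. Every FSP1-Cre;NT3 tumor was higher than every Osx-Cre;NT3 tumor, and tumor 36 had 8.63 times the level of the next tumor. The mean was 12.9 ± 1.07 CPM in Osx-Cre;NT3 and 94.7 ± 120 CPM in FSP1-Cre;NT3 (SD, n = 3 each). Between the lines its log2 fold change was 2.88 with a 95% interval from 0.69 to 5.07, which did not pass adjustment over all genes (edgeR, adjusted p = 0.458). Without tumor 36 it was 0.98 (edgeR, adjusted p = 0.680), and among the 4 trunk tumors it was 0.88 (edgeR, adjusted p = 1.00). With DESeq2 a log2 fold change of 2.88 was obtained with no adjusted p, since Klf4 was set aside as holding an outlying count. It was called by DESeq2 without tumor 25, 27, 29 or 36, and without tumor 36 its log2 fold change was 0.96 (DESeq2, adjusted p = 0.0280).

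Perineal over trunk tumors, the log2 fold change of Klf4 was 3.05 with a 95% interval from 1.39 to 4.71 (edgeR, adjusted p = 0.263) or 8.30-fold, and both perineal tumors were higher than all 4 trunk tumors. DESeq2 gave 3.06 with an adjusted p of 0.00239. Without tumor 36 this fell to 0.76 (DESeq2, adjusted p = 1.00), so the call rested on that tumor. Without tumor 27, where tumor 36 alone stood for the perineal site, it was 3.87 (edgeR).

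Klf5, the basal relative of Klf4, had 19.4, 12.0 and 30.8 CPM in the Osx-Cre;NT3 tumors and 33.6, 30.9 and 72.6 CPM in the FSP1-Cre;NT3 tumors. The lines did not overlap, but tumors 25 and 29, at 30.8 and 30.9 CPM, nearly met. The log2 fold change was 1.14 between the lines with a 95% interval from 0.028 to 2.25 (edgeR, adjusted p = 0.458) and 1.18 between the sites (edgeR, adjusted p = 0.428). Without tumor 36 the values were 0.64 and 0.53 (edgeR). Between the lines DESeq2 gave 1.13 (adjusted p = 0.266), and without tumor 25 it passed, at 1.52 (DESeq2, adjusted p = 0.0167). The RPKM ratio of Klf4 to Klf5 lay between 0.214 and 0.637 in 5 tumors and was 1.82 in tumor 36, the one tumor in which Klf4 exceeded Klf5. Its log2 value differed by 0.92 between the lines (exact permutation p = 0.4, adjusted p = 0.5), by 0.24 without tumor 36 and by 0.51 without tumor 25. The deposited Klf5 model ends 1627 bases before the GENCODE gene at its 3′ end and has a length of 1725 bases, which enters its RPKM and this ratio. In tumor 36, Klf4 at 61.9 RPKM was also above Trp63 at 26.4 RPKM, in contrast to the other 5 tumors.

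**Figure D2:**
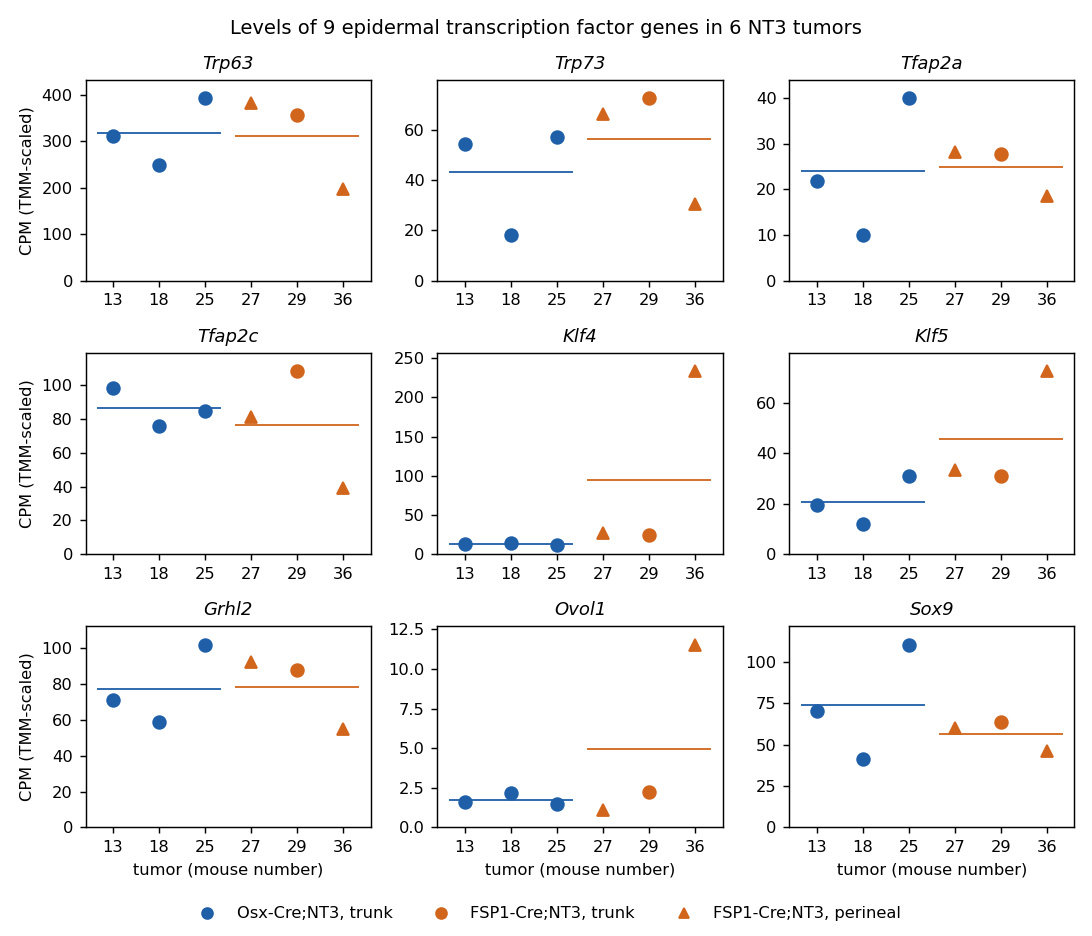
Levels of the 9 genes in each of the 6 tumors in TMM-scaled CPM (linear axes from 0); horizontal lines are the means of the 3 Osx-Cre;NT3 and the 3 FSP1-Cre;NT3 tumors. Klf4, Klf5 and Ovol1 peaked in tumor 36, while Trp63, Tfap2c and Grhl2 were lowest there.

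Grhl2, which keeps epithelial junction genes such as Cdh1 active, was the steadiest of the 9 genes. It had 70.9, 58.6 and 102 CPM in the Osx-Cre;NT3 tumors and 92.2, 88.1 and 54.8 CPM in the FSP1-Cre;NT3 tumors. Its highest value was 1.86 times its lowest, and the lines overlapped. Its log2 fold change was 0.022 between the lines with a 95% interval from -0.68 to 0.72 (edgeR, adjusted p = 0.978) and -0.13 between the sites (edgeR, adjusted p = 0.898).

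Ovol1, a zinc finger repressor that acts as keratinocytes stop dividing, was the lowest of the 9 genes. It had 1.61, 2.16 and 1.49 CPM in the Osx-Cre;NT3 tumors and 1.11, 2.23 and 11.5 CPM in the FSP1-Cre;NT3 tumors. Tumor 36 stood at 5.17 times the next tumor, and the remaining 5 did not separate by line. Between the lines a log2 fold change of 1.50 was found, with a 95% interval from -0.54 to 3.53 (edgeR, adjusted p = 0.493), and -0.074 without tumor 36. Between the sites it was 1.74 (edgeR, adjusted p = 0.493), and -0.76 without tumor 36, so its direction turned with that tumor. Without tumor 27, where tumor 36 alone stood for the perineal site, it was 2.58 (edgeR). Ovol1 exons overlap an antisense transcribed pseudogene, Gm31166, by 690 bases.

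Sox9 had 70.5, 41.7 and 111 CPM in the Osx-Cre;NT3 tumors and 60.0, 63.8 and 46.5 CPM in the FSP1-Cre;NT3 tumors. As for Tfap2a, tumors 18 and 25 held the lowest and highest values. The log2 fold change was -0.39 between the lines with a 95% interval from -1.24 to 0.46 (edgeR, adjusted p = 0.655) and -0.43 between the sites (edgeR, adjusted p = 0.679).

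Between the lines, 0 of the 9 genes passed an adjusted p of 0.05 by edgeR, as did 0 of the 16415 genes tested (0%). At an unadjusted p under 0.05, 2 of the 9 passed, Klf4 and Klf5, against 10.8% of all genes tested. DESeq2 called 0 of the 9, with no adjusted p for Klf4, and 452 of 16530 genes, 2.73%. The values of the lines did not overlap for 2 of the 9, Klf4 and Klf5, both higher in FSP1-Cre;NT3, beside 9.03% of all genes in that direction, and 0 of the 9 were lower without overlap, beside 7.97% (17% of all genes in either direction). The median log2 fold change was 0.052 over the 9 genes and 0.015 over all genes tested, with 3 of 9 below 0 against 48.9%. Library sizes alone moved the median of all genes to 0.13.

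Between the sites, 0 of the 9 genes and 0 of 16971 genes tested (0%) passed by edgeR. At an unadjusted p under 0.05, 2 of the 9, Klf4 and Klf5, passed against 10.5% of all genes. DESeq2 called 1 of the 9, Klf4, and 4.24% of all genes, and without tumor 36 it called 0 of the 9 and 15 genes in all. Perineal tumors were higher without overlap for 2 of the 9, again Klf4 and Klf5, beside 9.98% of all genes in that direction. None of the 9 was lower without overlap, beside 9.57% of all genes, and 19.6% did not overlap in either direction. The comparison of the sites shares all 6 tumors with that of the lines, both perineal tumors being FSP1-Cre;NT3. With line as a covariate the log2 fold change of Klf4 between the sites was 2.45 and that of Klf5 0.77 (edgeR, adjusted p = 1.00 for both).

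**Figure D3:**
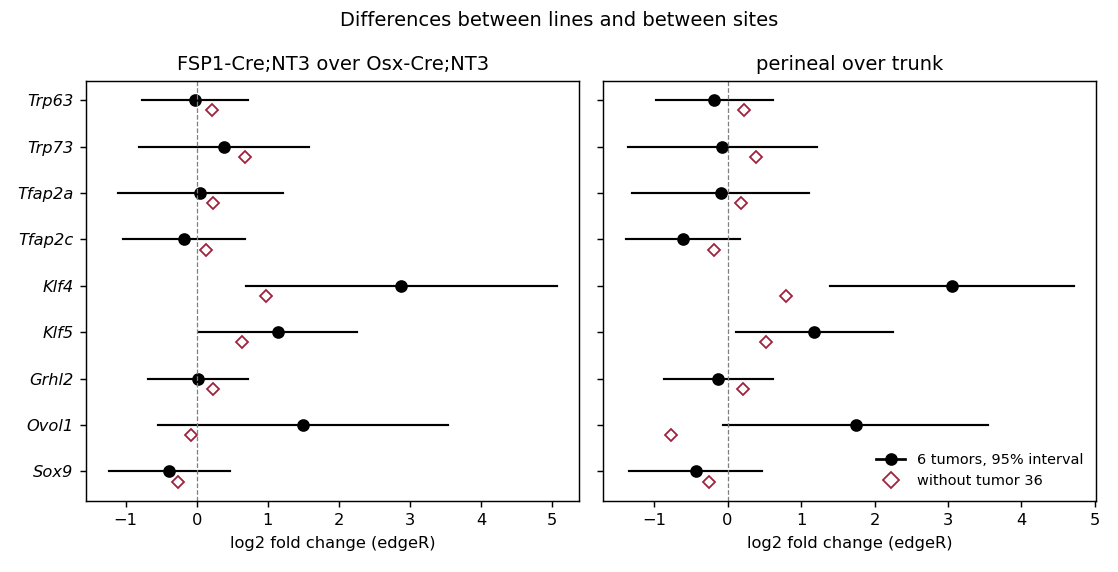
Log2 fold changes of the 9 genes by edgeR between the lines (left) and the sites (right); black points are values from 6 tumors with 95% intervals and open diamonds values without tumor 36. Klf4 moved from 2.88 to 0.98 between the lines and from 3.05 to 0.79 between the sites when tumor 36 was left out.

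The 9 genes differed in their spread over the tumors. The SD of log2 CPM over the 6 tumors was 0.37 for Grhl2, 0.39 for Trp63, 0.50 for Sox9 and 0.51 for Tfap2c, close to the median of 0.47 over all genes tested. It was 0.69 for Tfap2a, 0.77 for Trp73, 0.87 for Klf5, 1.19 for Ovol1 and 1.62 for Klf4, and 5.13% of all genes had a larger SD than Klf4. Tumor 36 was lowest for 3 of the 9 genes, Trp63, Tfap2c and Grhl2, and highest for 3, Klf4, Klf5 and Ovol1. Among all genes tested, tumor 36 was lowest for 23.8% and highest for 24.8%. On the log2 scale it lay below the mean of the other 5 tumors by -0.76 for Trp63 and -1.17 for Tfap2c, and above it by 3.79 for Klf4, 2.77 for Ovol1 and 1.61 for Klf5. Tumor 18 was lowest for 4 of the 9, Trp73, Tfap2a, Klf5 and Sox9, and for 25.2% of all genes tested. The spread of several genes rested on 1 tumor. Without tumor 36 the SD was 0.55 for Klf4, 0.41 for Ovol1 and 0.21 for Tfap2c. Without tumor 18 it was 0.49 for Trp73 and 0.42 for Tfap2a, and without tumor 25 it was 0.32 for Sox9.

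Marker lists of other cell types moved in tumor 36 together with these genes. The summed level of the 9 suprabasal keratinocyte markers found was 927 CPM in tumor 36 against 56.2 to 457 CPM in the others. Krt1 and Krt10, the keratins of the suprabasal layers, had 352 and 278 CPM there, but also 127 and 186 CPM in tumor 13, where Klf4 was at 13.5 CPM. The summed level of 10 simple and luminal epithelium markers was 5068 CPM in tumor 36 against 684 to 1317 CPM, led by Krt8 at 2249 CPM, with Krt19 at 1092 CPM against 11.8 to 43.4 CPM. Of these 10 markers, 4 were not highest in tumor 36, Krt18 and Wfdc2 peaking in tumor 18, Krt7 in tumor 27 and Aqp5 in tumor 29. That of 8 smooth muscle and myoepithelium markers was 2961 CPM against 264 to 568 CPM, with Cnn1 at 239 CPM. The 6 adipocyte markers summed to 149 CPM against 3.15 to 39.0 CPM. The sum of the 6 basal keratinocyte markers was lowest in tumor 36, at 5728 CPM against 9885 to 14402 CPM, as were the keratins Krt5, Krt14 and Krt15 among them. Col17a1, Itgb4 and Itga6, which anchor basal cells to the basement membrane, were lowest in tumor 18, and Itga6 stood at 185 CPM in tumor 36, second to 215 CPM in tumor 25. None of these lists had a marker at 0 in every tumor. The sum of the 9 fibroblast markers separated the lines, from 5324 to 6934 CPM in Osx-Cre;NT3 and from 11863 to 15270 CPM in FSP1-Cre;NT3. Col1a1, Col1a2 and Col3a1 made up most of it, with means of 2131, 2840 and 3780 CPM. Of the 9 markers, 8 had a log2 fold change above 0 between the lines. Among all single genes, 17% did not overlap between the lines in either direction. The part of these cell types in the levels of Klf4, Klf5, Ovol1 and Tfap2c was not tested.

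**Figure D4:**
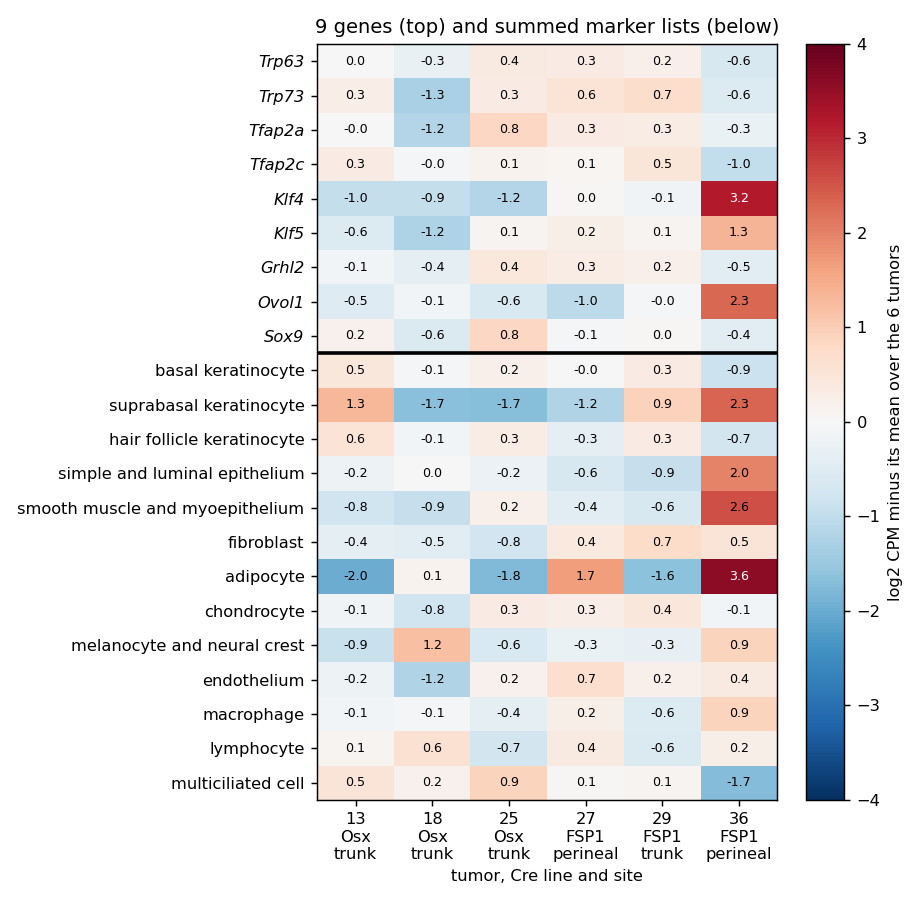
Log2 CPM of the 9 genes (top) and of summed marker lists (below) in each tumor, minus the row's mean over the 6 tumors. Tumor 36 is the column in which Klf4 and Ovol1 and the suprabasal, luminal, smooth muscle and adipocyte sums were high and Tfap2c and the basal sum were low.

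The relatives of the 9 genes in their DNA-binding families were examined next. In the p53 family, Trp53 had the highest level per length, 69.9 RPKM against 42.0 RPKM for Trp63, with a log2 fold change of -0.24 between the lines (edgeR, adjusted p = 0.754). In the AP-2 family, 3 of 5 genes were tested, Tfap2b had a mean of 8.07 CPM and Tfap2d was at 0 in every tumor. In the KLF family, Klf6 had the highest mean at 27.5 RPKM, followed by Klf5 and Klf4. The place of Klf4 rested on tumor 36, at 61.9 RPKM against 3.11 to 7.85 RPKM in the others. Between the lines 13 of 15 KLF genes tested had a log2 fold change above 0, beside 51.1% of all genes, with a family median of 0.74, and 4 had an unadjusted p under 0.05, beside 10.8%. These were Klf2, Klf4, Klf5 and Klf13, and 0 passed adjustment by edgeR. DESeq2 called 0 KLF genes between the lines, with no adjusted p for Klf4, beside 2.73% of all genes. Without tumor 36, 12 of 16 were above 0, with a median of 0.38, beside 48.6% of all genes. Klf13 had 20.4, 16.5 and 31.4 CPM in Osx-Cre;NT3 and 44.1, 37.6 and 80.9 CPM in FSP1-Cre;NT3 tumors, without overlap (log2 fold change 1.25; edgeR, adjusted p = 0.458). Klf2, an endothelial and lymphocyte factor, had a log2 fold change of 1.00 between the lines and 1.17 between the sites. DESeq2 called it between the sites (adjusted p = 0.00208), beside 4.24% of all genes. With tumor 36 left out, and a lone perineal tumor remaining, DESeq2 no longer called Klf2 between the sites. Its log2 fold change there was 1.24 (edgeR). Klf3, Klf9, Klf10, Klf12 and Klf16 had means from 11.8 to 30.2 CPM and log2 fold changes between the lines from -0.098 to 0.81, none called.

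Among Grainyhead genes, Ubp1 and Grhl3 were above Grhl2 per length, at 18.4 and 17.9 RPKM against 12.7 RPKM. Grhl3, which acts in barrier formation, had 73.0, 41.9 and 86.7 CPM in Osx-Cre;NT3 and 62.3, 75.9 and 32.9 CPM in FSP1-Cre;NT3 tumors. Like Grhl2, it was lowest in tumor 36. Tfcp2l1, a relative expressed in ductal epithelium, was at 193 CPM in tumor 36 and at 10.3 to 29.1 CPM elsewhere, while Grhl1 and Tfcp2 had means of 23.1 and 15.6 CPM. Of 6 Grainyhead genes tested, 0 were called by edgeR in either comparison. DESeq2 called Tfcp2l1 between the sites (adjusted p = 0.0428), beside 4.24% of all genes. Without tumor 36 its log2 fold change between the sites was -0.20 (DESeq2, adjusted p = 1.00). Ovol2, which was below the 10 CPM set for naming relatives but is the sole other OVO gene found, was steadier than Ovol1, from 7.06 to 10.3 CPM, and was not highest in tumor 36. In the SOX family, Sox4 was above Sox9 per length, at 22.1 RPKM against 12.7 RPKM, and Sox21 and Sox18 had means of 28.4 and 18.4 CPM. Of 13 SOX genes tested, 5 had an unadjusted p under 0.05 between the lines, beside 10.8% of all genes, and 0 were called by edgeR. DESeq2 called 2, Sox6 and Sox12, beside 2.73% of all genes. With tumor 36 left out it called Sox6, beside 1.04% of all genes, but not Sox12 (DESeq2, adjusted p = 0.289). The log2 fold change of Sox12 was 1.18 in all 6 tumors and 1.08 without tumor 36 (edgeR). Sox6, a partner of SOX9 in cartilage, had 1.16, 1.01 and 0.873 CPM in Osx-Cre;NT3 and 6.60, 6.05 and 5.53 CPM in FSP1-Cre;NT3 tumors (log2 fold change 2.58; edgeR, adjusted p = 0.359; DESeq2, adjusted p = 1.94e-15).

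**Figure D5:**
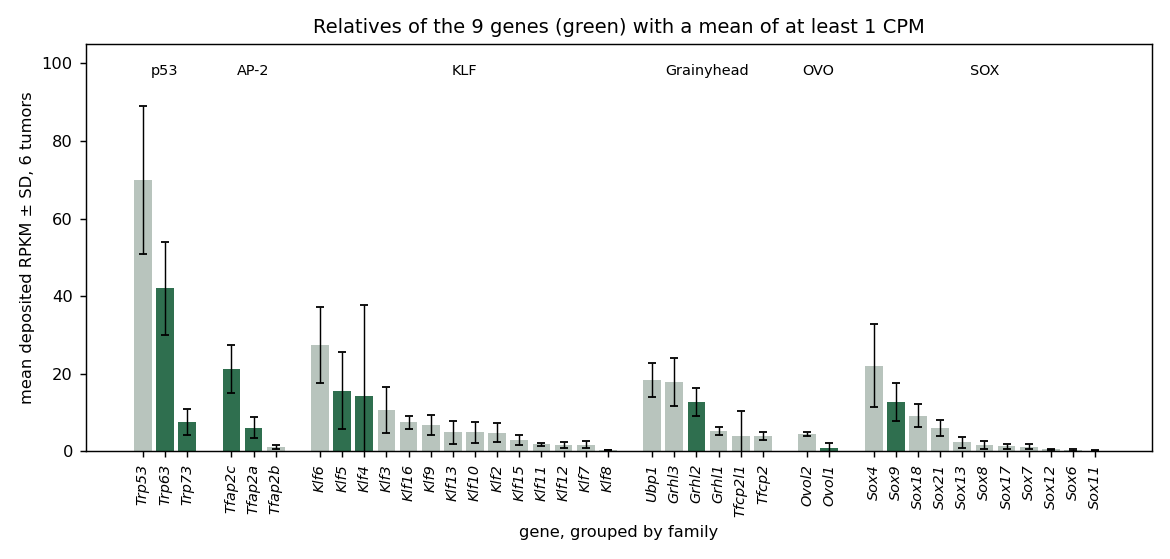
Mean deposited RPKM with SD over the 6 tumors for the 9 genes (green) and their relatives (grey) with a mean of at least 1 CPM, grouped by family. Trp63 stood at 42.0 RPKM beside Trp53 at 69.9 RPKM, and the SD of Klf4, 23.4 RPKM, exceeded its mean of 14.3 RPKM.

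Genes known as targets or partners of these factors gave a count of 0 in each direction by edgeR, for the lines and for the sites. Over all genes, 51.1% were above 0 between the lines, with a median log2 fold change of 0.015, and 10.8% had an unadjusted p under 0.05. Each list that follows is given beside these shares. Of 20 p63 target genes, 8 had a log2 fold change above 0 between the lines, with a median of -0.12, and 2 had an unadjusted p under 0.05. Krt5, Krt14 and Perp, a desmosome gene, were the most abundant, with means of 4671, 3033 and 837 CPM. Fras1 and Lamb3 varied most, over 3.24 and 2.86 log2 units. Of 12 GRHL2 target genes, 5 were above 0 with a median of -0.052, and 0 had an unadjusted p under 0.05. With tumor 36 left out, 2 of the 12 were above 0, beside 48.6% of all genes, with a median of -0.23. Epcam alone then had an unadjusted p under 0.05, beside 6.25% of all genes. DESeq2 called it (adjusted p = 0.0252), beside 1.04%. The log2 fold change of Epcam was then -0.94 (edgeR, adjusted p = 0.680), against 0.024 in all 6 tumors. Cdh1, encoding E-cadherin, had a mean of 375 ± 121 CPM, and Epcam and Prom2 had 340 and 269 CPM. Cdh3 varied most, from 48.8 to 248 CPM.

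Of 14 KLF4 and barrier genes tested, 13 were above 0 between the lines, with a median of 1.43, and 2 had an unadjusted p under 0.05, Tgm3 and Casp14. Without tumor 36, 8 of the 14 were above 0, beside 48.6% of all genes, and the median was 0.15. Between the sites 13 of 14 above 0, beside 48.5% of all genes, became 2 of 14, beside 47.4%. Tgm3, a transglutaminase of the cornified envelope, was at 116 CPM in tumor 36 and at 0.614 to 2.03 CPM elsewhere, and Flg2 was at 4.22 CPM in tumor 36 and listed at 0 in tumors 18 and 25. DESeq2 called Casp14 in both comparisons and Tgm3 between the sites, beside 2.73% of all genes between the lines and 4.24% between the sites. Neither was called without tumor 36, where the log2 fold change of Tgm3 between the sites was -1.08 and that of Casp14 0.069 (DESeq2). The exception among the barrier genes was Cldn4, lowest in tumor 36 at 60.2 CPM (log2 fold change -0.72; edgeR, adjusted p = 0.458). Of 11 SOX9 cartilage partners and targets tested, 8 were above 0, with a median of 0.57. Cartilage matrix genes were low beside Sox9, with means of 6.42 CPM for Col2a1 and 1.22 CPM for Acan, while Col11a1 had a mean of 50.5 CPM. Hapln1, at a mean of 0.805 CPM, varied most. DESeq2 called Acan between the lines in addition to Sox6, but not without tumor 36 (adjusted p = 0.215). The log2 fold change of Acan was 2.04 in all 6 tumors and 1.83 without tumor 36 (edgeR). Among 12 hair follicle regulators, where SOX9 is also placed, 10 were above 0 between the lines with a median of 0.51, and 3 had an unadjusted p under 0.05. Nfib, Runx1 and Tcf7l1 were highest at 198, 54.4 and 27.9 CPM, while Lgr6 and Lhx2 varied most at means of 0.431 and 0.536 CPM. Lgr5, a hair follicle stem cell gene, had 4.35, 6.81 and 5.15 CPM in Osx-Cre;NT3 and 11.1, 11.6 and 17.1 CPM in FSP1-Cre;NT3 tumors (edgeR, adjusted p = 0.441; DESeq2, adjusted p = 0.0138). DESeq2 called 3 of the 12 between the lines, Lgr5, Gli2 (adjusted p = 0.00793) and Tbx1 (adjusted p = 0.0413), beside 2.73% of all genes. With tumor 36 left out it called 0 of the 12, beside 1.04% of all genes. The log2 fold changes of Lgr5, Gli2 and Tbx1 were then 1.06, 1.89 and 1.18, against 1.29, 1.96 and 1.42 in all 6 tumors (edgeR).

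Of 25 other epidermal regulators tested, 18 were above 0 between the lines, with a median of 0.45, and 5 had an unadjusted p under 0.05. Without tumor 36 these were 15 of 25, 0.18 and 1, beside 48.6% of all genes above 0 and 6.25% with such a p. Ehf, an ETS factor of epithelia, was the most abundant at 677 ± 129 CPM, followed by Pitx1 at 344 CPM and Cebpa at 320 CPM. These 3 were lowest in tumor 36, as Trp63 was. Elf3, another epithelial ETS factor, was highest in tumor 36 like Klf4, with 168 CPM there and 9.35 to 14.9 CPM elsewhere. Its log2 fold change without tumor 36 was 0.018 between the lines and -0.20 between the sites by edgeR. Dlx3 varied nearly as much, over 4.09 log2 units. Of 9 mesenchymal transition regulators, which GRHL2 and OVOL proteins are known to oppose, 7 were above 0 between the lines with a median of 0.90, and 5 had an unadjusted p under 0.05, beside 51.1% and 10.8% of all genes. The 9 fibroblast markers, whose sums separated the lines, moved the same way, with 8 above 0, a median of 1.01 and 6 with an unadjusted p under 0.05. Their part in the values of the transition regulators was not tested. Snai2, Zeb2 and Prrx1 were the most abundant, at 45.9, 40.1 and 35.7 CPM. Twist2 and Twist1 varied most, over 3.26 and 2.21 log2 units. DESeq2 called Snai1 between the lines (adjusted p = 1.61e-06), beside 2.73% of all genes, while edgeR did not (adjusted p = 0.412). Snai1 had 3.93, 3.30 and 3.52 CPM in Osx-Cre;NT3 and 10.7, 11.8 and 8.97 CPM in FSP1-Cre;NT3 tumors. Zeb1 and Zeb2 were called by DESeq2 between the sites, beside 4.24% of all genes. Without tumor 36 Snai1 was still called between the lines (DESeq2, adjusted p = 2.46e-05). With a lone perineal tumor then left, DESeq2 called neither Zeb1 nor Zeb2 between the sites. Their log2 fold changes between the sites were then 1.05 and 0.81 (edgeR). In all 6 tumors they were 1.05 and 1.03.

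The genes whose tumor-to-tumor pattern was most like that of each factor were taken from those with a mean of at least 10 CPM. Likeness was the root mean square difference of log2 CPM, each gene centred on its mean over the 6 tumors, among 10320 candidates (10321 for Ovol1). These are descriptions over 6 tumors that share scaling and tumor 36. For Trp63, Ipo4 (0.055) and Ppm1h (0.061) were among the nearest. For Trp73 they were Ptp4a3 (0.18), Cbx6 (0.18) and Abcc5 (0.21), and for Tfap2a Agap1 (0.072), Mark4 (0.088) and Ptprf (0.097). For Tfap2c they were Il17re (0.094), Tgif2 (0.10) and Tmem132a (0.11). For Klf4 they were Atp2a3 (0.18), C630004H02Rik (0.23) and Pgm5 (0.23), and for Klf5 Pag1 (0.13), Slc5a3 (0.13) and Slc36a1 (0.14). For Grhl2 they were Sidt2 (0.047), Fzd6 (0.057) and Trp53bp1 (0.061). For Ovol1 they were Gdpd1 (0.20), Myl9 (0.21) and St3gal6 (0.23), and for Sox9 Trp53inp2 (0.091), Plod2 (0.092) and Fam160a1 (0.10). Among the 9 genes themselves, Trp63 and Grhl2 were the closest pair at 0.094, whereas Klf4 and Ovol1 differed by 0.72 and Trp63 and Ovol1 by 1.41.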

How the data were processed

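RNA from 6 tumors was analysed, 3 from each line, grouped by the sample titles, with site from the tissue label. The authors trimmed reads, aligned them to mm10 and deposited raw counts per gene without normalization, plus RPKM values, which take gene length and sequencing depth into account. The methods name HISAT2 and featureCounts and the submitters' processing notes TopHat2 2.0.6 and HTSeq, and which made the table was not settled. Annotation and strandedness are not given in the sources used here. All per-sample columns were used.

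Tests on the counts used edgeR 4.0.16 (R 4.3.3, filterByExpr, TMM, quasi-likelihood test, Benjamini-Hochberg over all genes tested), for the lines and for the sites. Each tumor came from its own mouse, so the spread is between animals. log2 CPM used a prior count of 2. Alternatives were DESeq2 1.42.0, library sizes alone, upper-quartile scaling, other count filters, the other factor as covariate, trunk tumors alone, TMM-scaled counts per kilobase for the order, counts in place of RPKM for the ratios, and each tumor left out. After the data had been seen, halved counts, DESeq2 with each tumor left out and the gene lists without tumor 36 were added.

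3 counts, the limit that a count of 0 allows, correspond to 0.0195 to 0.0621 CPM, and cover counting error only. If each counted fragment was entered more than once, which the even counts allow, this limit is too low. Of 232 list entries, 230 were found, 4 under an older symbol. The 9 genes, the lists and the rules for naming genes were chosen with earlier results of these data known. Relatives in a family were named at a mean of at least 10 CPM, genes of other lists when among the 3 most abundant or the 2 most variable, and 3 genes per factor by likeness. Genes named beyond this (Tfap2b, Tfap2d, Ovol2, Sox10, Mitf, Tyr, Tyrp1, Dct, Pmel, Mlana, Sox12, Casp14, Snai1, Zeb1, Lgr5, Gli2, Tbx1, Krt15, Col17a1, Itgb4, Itga6, Krt18, Wfdc2, Krt7, Aqp5, Mcidas and Tekt1) were chosen after their values were seen. Some genes that these rules select are not reported here.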

Additional observations from a re-analysis of the deposited data

Results flagged for a closer look

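Of 24 series of values tested for a tumor far from the others, 4 had one, where chance gives about 1.2, since such a test marks about 1 in 20 groups. The series share the same 6 tumors, and tumor 36 was lowest for 23.8% and highest for 24.8% of all genes tested. The share of all genes so marked is not given here, so the 4 are not read as particular to these genes. The log2 CPM of Klf4 was 7.87 in tumor 36, with the next tumor at 4.76, a gap of 0.719 of the whole range. That of Ovol1 was 3.53 in tumor 36, with the next at 1.17 (gap 0.703 of the range), and that of Tfap2c was 5.30 in tumor 36, below the next at 6.25 (gap 0.648). The log2 RPKM ratio of Trp73 to Trp63 was -3.57 in tumor 18, below the next at -2.60 (gap 0.664). Tumor 36 differs from tumor 18 in line, site and latency, and no cause was tested.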

How the results depend on the processing

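By edgeR, 0 genes passed in either comparison under the scalings, filters, covariate fits and halved counts. DESeq2 called 452 genes between the lines and 734 between the sites, and 1 of the 9 genes, Klf4, between the sites at 3.06. The sign of Trp63 between the lines turned to 0.093 with library sizes alone, 0.023 under upper-quartile scaling, 0.16 with site as a covariate and 0.16 among trunk tumors alone. That of Tfap2c turned to 0.33 and 0.32 under the last 2 of these, and that of Trp73 between the sites to 0.035 with library sizes alone.

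Leaving out each tumor in turn, by edgeR and by DESeq2, gave 0 to 3700 genes and 0 to 2 of the 9 between the lines, and 0 to 1531 genes and 0 to 3 of the 9 between the sites. The 3700 came from DESeq2 without tumor 25, and the highest by edgeR was 567, between the sites without tumor 27. Without tumor 27 or 36 the lone perineal tumor was assumed to vary like the trunk tumors, as was tumor 29, the lone FSP1-Cre;NT3 tumor from the trunk, among trunk tumors alone. The log2 fold changes then ranged between the lines from -0.21 to 0.22 for Trp63, -0.00036 to 0.68 for Trp73, -0.33 to 0.62 for Tfap2a, -0.54 to 0.13 for Tfap2c, 0.96 to 3.34 for Klf4, 0.61 to 1.52 for Klf5, -0.16 to 0.26 for Grhl2, -0.088 to 1.97 for Ovol1 and -0.69 to 2.7e-05 for Sox9. Between the sites they ranged from -0.76 to 0.22 for Trp63, -0.75 to 0.39 for Trp73, -0.44 to 0.22 for Tfap2a, -1.25 to -0.18 for Tfap2c, 0.76 to 3.91 for Klf4, -0.57 to 0.20 for Grhl2 and -0.80 to 2.62 for Ovol1, while Klf5 and Sox9 kept their side. In the order per length, the difference ranged from -0.037 to 0.11 for Grhl2 over Sox9, -0.72 to 0.32 for Klf4 over Trp73 and -0.25 to 0.29 for Klf5 over Grhl2. The difference between the lines in the log2 ratio ranged from 0.15 to 0.76 for Trp73 to Trp63, 0.10 to 1.02 for Tfap2a to Tfap2c and 0.24 to 1.30 for Klf4 to Klf5. The cause of these shifts was not tested. No paired analysis was possible because the mouse numbers of the lines share none. The number of tumors, not depth, limits the precision.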

Other observations

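Foxj1, the factor of multiciliated cells in which Trp73 is known to act, had a mean of 152 CPM and was at 139 CPM or more in 5 tumors and at 40.0 CPM in tumor 36. The other 4 multiciliated markers, Mcidas, Ccno, Dnah5 and Tekt1, were near 0, with a highest value of 0.31 CPM. Of 8 melanocyte and neural crest markers, which include Sox10, a relative of Sox9, the summed level was 38.7 CPM in tumor 18, 31.3 CPM in tumor 36 and 9.11 to 14.0 CPM in the other 4. Sox10 and Mitf were highest in tumor 36, Sox10 at 2.06 CPM, and Tyr, Tyrp1, Dct, Pmel and Mlana in tumor 18, Dct at 13.8 CPM.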
